A study of Homo sapiens with 2 samples.

Results

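FN1, the gene of fibronectin, and 9 integrin subunit genes were followed in FTC-133 cells, an established human line from a follicular thyroid carcinoma. The 10 genes are FN1, the alpha subunits ITGA3, ITGA5, ITGA6 and ITGAV, the beta subunits ITGB1, ITGB3, ITGB4 and ITGB5, and ITGAE. They were taken by symbol, all 10 were among the 19362 genes of the deposited table, and all 10 had a mean of at least 1 CPM (counts scaled to a fixed library size) over both libraries. RNA sequencing was done on cells transfected with siRNA against CHI3L1, a gene for a secreted chitin-binding glycoprotein also called YKL-40, and on cells transfected with a control siRNA. There was 1 library per group, and both groups are the same line with no other treatment named. The study set out to see what silencing CHI3L1 does to the transcriptome. The genes were selected on their CPM values and folds in this same comparison, so their values are a description, no p-value is given, and each difference is between these 2 libraries with no replicate check.

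Fibronectin is a large secreted glycoprotein that cells assemble into fibrils around themselves. Integrins are membrane receptors made of 1 alpha and 1 beta chain, and the pair decides the ligand: ITGA5 with ITGB1 is the main fibronectin receptor, ITGAV with several beta chains binds the RGD (arginine-glycine-aspartate) sequence of fibronectin and vitronectin, and ITGA3 and ITGA6 with ITGB1, or ITGA6 with ITGB4, bind laminins of the basement membrane. ITGAE pairs with ITGB7 on lymphocytes within epithelia, where the pair binds E-cadherin. In thyroid tissue, integrins hold follicular cells to the basement membrane, and fibronectin is a known marker gene of thyroid carcinomas.

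The sequence that most of these receptors read in fibronectin is shown first, since it links FN1 to the RGD-binding subunits. The stretch below holds 45 coding bases of FN1 on the minus strand of GRCh38, chr2:215384045-215384089, in exon 29 of the 44 exons of the annotated transcript used here, and the capitals mark the codons of RGD. An RGD triplet occurs 1 time in the reading frame of that transcript, starting at base 4570 of 6528 coding bases.
FN1 RGD codons: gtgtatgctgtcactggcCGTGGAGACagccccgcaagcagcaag

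Promoter windows are shown for FN1 and ITGA5, the ligand and its receptor chain that were both about 2-fold higher in the CHI3L1 siRNA library, and for ITGAE, which was lower. Each window runs from 250 bases before to 50 bases after the gene start in RefSeq (build GRCh38.p14), 5′ to 3′ on the gene's own strand, which is the minus strand for all 3. Of the 10 genes, 7 matched the RefSeq promoter table. Capitals mark the GC box GGGCGG, the CCAAT box CCAAT and the cyclic AMP response element TGACGTCA, each searched on both strands, with matches allowed to overlap one another.
FN1 chr2:215436019-215436318: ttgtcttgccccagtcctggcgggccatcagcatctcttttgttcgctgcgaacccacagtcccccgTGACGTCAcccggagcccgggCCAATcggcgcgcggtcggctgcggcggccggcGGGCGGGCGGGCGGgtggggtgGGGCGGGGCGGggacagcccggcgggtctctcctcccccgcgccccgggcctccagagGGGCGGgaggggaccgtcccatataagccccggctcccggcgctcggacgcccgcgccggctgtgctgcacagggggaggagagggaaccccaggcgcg
ITGA5 chr12:54419217-54419516: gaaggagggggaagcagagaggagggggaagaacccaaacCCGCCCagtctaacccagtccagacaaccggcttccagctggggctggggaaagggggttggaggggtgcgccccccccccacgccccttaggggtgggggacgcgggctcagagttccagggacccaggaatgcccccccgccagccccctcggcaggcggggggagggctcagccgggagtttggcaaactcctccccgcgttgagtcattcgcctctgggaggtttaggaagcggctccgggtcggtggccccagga
ITGAE chr17:3801139-3801438: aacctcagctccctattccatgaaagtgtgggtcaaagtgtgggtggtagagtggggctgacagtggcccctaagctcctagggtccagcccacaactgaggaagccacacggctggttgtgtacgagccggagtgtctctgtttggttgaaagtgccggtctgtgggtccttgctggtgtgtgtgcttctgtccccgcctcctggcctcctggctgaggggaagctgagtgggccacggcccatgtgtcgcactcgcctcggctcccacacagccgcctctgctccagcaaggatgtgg

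The FN1 window holds 6 GC boxes, 1 CCAAT box and 1 cyclic AMP response element, the last with its first base at -183 from the gene start. The ITGA5 window holds 1 GC box, and the ITGAE window holds none of these letters. Over all 35116 windows of the table, 45.0% hold a GC box, 34.6% a CCAAT box and 1.85% a cyclic AMP response element. A match describes the letters in a window and does not show that a factor binds there.

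Depth, recovered from the deposited values, was 19467345 reads in genes for the CHI3L1 siRNA library and 15837449 for the control siRNA library. CHI3L1 itself had 947 reads (48.6 CPM) in the CHI3L1 siRNA library, against 2215 reads (140 CPM) under control siRNA. Of thyroid follicular markers, NKX2-1 stood at 112 and 88.6 CPM and PAX8 at 71.2 and 82.8 CPM in the CHI3L1 siRNA and control siRNA libraries, while TG, the thyroglobulin gene, had 14 and 10 reads, and SLC5A5 was not analysed here. Transcript length moved with the folds across the table: the median log2 fold of CHI3L1 siRNA over control siRNA, with 1 CPM added to both, was −0.62 for the 599 coding genes with transcripts of at most 1000 nt and 0.25 for the 4627 with transcripts above 4000 nt. All 10 genes have transcripts of at least 3640 nt, so their folds are also given after subtracting a smooth trend in the GC content, coding length and full length of transcripts. The part of length in any single gene's difference was not tested.

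FN1 had the most reads of any gene in both libraries. It stood at 39639 CPM (772829 reads) in the CHI3L1 siRNA library, against 275273 reads (17407 CPM) with control siRNA. Fibronectin transcripts were thus 3.97% (3.96% to 3.98%) of all reads in the CHI3L1 siRNA library and 1.74% (1.73% to 1.74%) in the control siRNA library, with exact binomial 95% intervals. The read ratio was 2.28 (2.27 to 2.29). This and all later intervals in parentheses are 95% intervals for counting error alone, and without molecular identifiers they may be too narrow. The log2 fold of FN1 was 1.19, above that of 99.6% of the 14815 genes tested, and 0.74 after the trend. Only 3 other genes had a mean within 4-fold of FN1's. Their log2 folds were 0.67 for the mitochondrially encoded MT-CO1, −0.12 for the mitochondrial ribosomal RNA MT-RNR2 and −0.43 for the elongation factor EEF1A1. The nearest of them differed from FN1 by 0.52 in log2 fold over these 2 libraries. In RNA from whole cultures, a difference in the number of cells that make a transcript and a difference in transcript per cell cannot be told apart. Fibroblasts also make fibronectin, and of 5 fibroblast markers, 0 of the 4 with a mean of at least 1 CPM passed 1.5-fold, and the summed level was 795 CPM in the CHI3L1 siRNA library and 619 CPM in the control siRNA library. Most of that sum was THY1, at 745 and 558 CPM in the same order of libraries. LUM stood lower in the CHI3L1 siRNA library, at 40.2 and 51.8 CPM, and PDGFRB at 7.90 and 7.15 CPM. PDGFRA had 2 and 9 reads and DCN 29 and 19. Epithelial markers summed to 84.8 CPM in the CHI3L1 siRNA library and 85.9 CPM in the control siRNA library, and endothelial markers to 13.2 and 14.99 CPM. Within these lists, 1 of 3 tested epithelial markers was at least 1.5-fold higher, EPCAM with 78 and 32 reads in the same order of libraries. Of 4 tested endothelial markers, 1 was at least 1.5-fold lower, PECAM1 with 74 and 116 reads. Over all genes tested, 7.73% were higher and 13.4% lower by that limit. The part of these markers in the fold of FN1 was not tested.

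**Figure D1:**
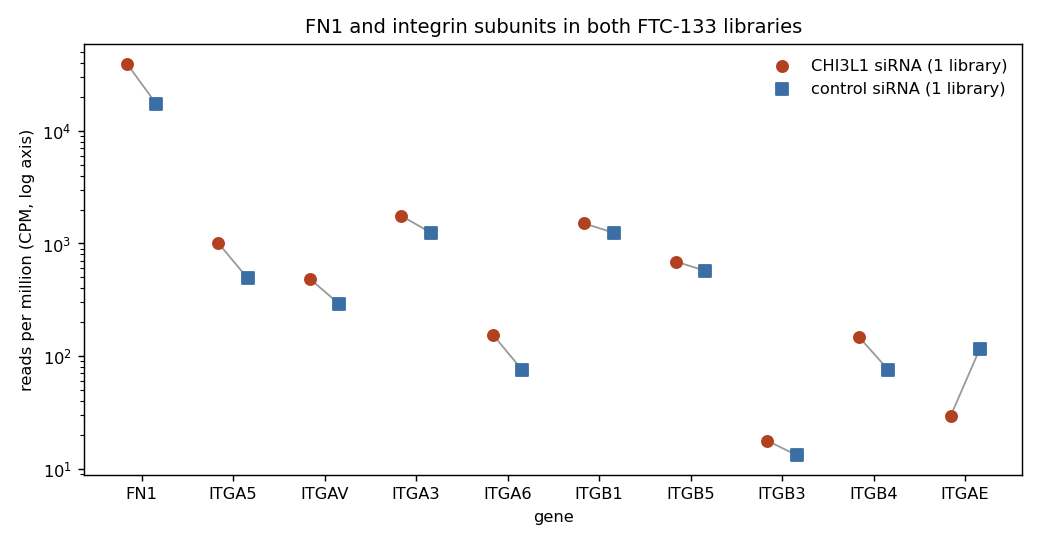
Levels (CPM, log axis) of the 10 genes in the CHI3L1 siRNA library (circles, left of each pair) and the control siRNA library (squares), 1 library each. The 9 genes other than ITGAE stood higher in the CHI3L1 siRNA library, and ITGAE stood at 29.2 CPM there against 116 CPM in the control siRNA library.

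Of the 10 genes, 5 were at least 1.5-fold higher in the CHI3L1 siRNA library, 1 was at least 1.5-fold lower and 4 passed neither limit. Over all 14815 genes tested, 7.73% were higher and 13.4% lower by the same limit, and the genes were picked with these folds known, so nothing is read from the difference. At 2-fold, 3 of the 10 were higher and 1 lower, with 1.03% and 4.41% over all genes. The median log2 fold was 0.62 over the 10 genes and 0.01 over all genes tested. After the trend, the 10 genes had 5 higher and 1 lower at 1.5-fold, beside 7.34% and 6.25% of the 12658 coding genes with a trend value. At 2-fold, 0 of the 10 were then higher and 1 was lower, beside 1.19% and 1.37%.

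Among the RGD-binding alpha subunits, ITGA5, the chain of the main fibronectin receptor, stood at 1005 CPM (19603 reads) in the CHI3L1 siRNA library, against 7752 reads (490 CPM) with control siRNA. Its read ratio was 2.05 (1.998 to 2.11), below the 2.28 (2.27 to 2.29) of FN1. ITGAV, the alpha chain that most vitronectin and fibronectin receptors share, stood at 485 CPM (9454 reads) in the CHI3L1 siRNA library, against 4580 reads (290 CPM) with control siRNA, a ratio of 1.67 (1.62 to 1.73). After the trend, ITGA5 and ITGAV had log2 folds of 0.75 and 0.74, against 1.03 and 0.74 before it. FN1 had 0.74 after the trend, so ITGA5 was then not below FN1. ITGAV has the transcript with the lowest GC content of the 10 genes, 38.3%, and its fold moved little.

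The RGD-binding beta subunits differed less. ITGB1, the beta chain with the most alpha partners, stood at 1505 CPM (29333 reads) in the CHI3L1 siRNA library and 1244 CPM (19671 reads) in the control siRNA library, a ratio of 1.21 (1.19 to 1.23). ITGB5, a vitronectin receptor chain, stood at 691 CPM in the CHI3L1 siRNA library and 571 CPM in the control siRNA library, a ratio of 1.21 (1.18 to 1.24). ITGB3, best known from platelets and from endothelium, had the fewest reads of the 10 genes, at 17.6 CPM (344 reads) in the CHI3L1 siRNA library and 13.2 CPM (208 reads) in the control siRNA library, a ratio of 1.34 (1.13 to 1.60). All 3 stood higher in the CHI3L1 siRNA library, and none passed 1.5-fold. After the trend the log2 folds were 0.41 for ITGB1, 0.14 for ITGB3 and −0.01 for ITGB5, so the sign of ITGB5 changed with the trend.

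Of the laminin-binding subunits, ITGA6 and ITGB4, which pair in hemidesmosomes, differed between the libraries by nearly the same factor. ITGA6 stood at 155 CPM (3014 reads) in the CHI3L1 siRNA library, against 1187 reads (75.1 CPM) with control siRNA, a ratio of 2.06 (1.93 to 2.20). ITGB4 stood at 148 CPM (2878 reads) in the CHI3L1 siRNA library, against 1192 reads (75.4 CPM) with control siRNA, a ratio of 1.958 (1.83 to 2.10). ITGA3, the alpha chain with the highest level per kilobase and a partner of ITGB1, stood at 1757 CPM (34249 reads) in the CHI3L1 siRNA library and 1249 CPM (19747 reads) in the control siRNA library, a ratio of 1.41 (1.38 to 1.43) that did not reach 1.5-fold. With the trend removed, log2 folds were 0.84 for ITGA6, 0.60 for ITGB4 and 0.19 for ITGA3.

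ITGAE went the other way. It stood at 29.2 CPM (569 reads) in the CHI3L1 siRNA library, against 1831 reads (116 CPM) with control siRNA, a ratio of 0.252 (0.229 to 0.277). The log2 fold was −1.95, below all but 0.175% of the 14815 genes tested, and −2.20 after the trend, where 0.0079% of genes stood lower. Its transcript of 3858 nt is in the length range of the other integrin genes, and the median fold of coding genes with transcripts above 2000 and up to 4000 nt was 0.03. The ITGAE gene (chromosome 17, minus strand, 3714628 to 3801243 in GRCh38) shares 427 exon bases with HASPIN, a histone kinase gene on the opposite strand. HASPIN had 208 reads in the CHI3L1 siRNA library and 83 in the control siRNA library, and the part of shared reads in the ITGAE value was not tested. ITGA5, ITGA6 and ITGB1 share between 42 and 125 exon bases each with genes on the opposite strand that had at most 46 reads.

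The genes nearest to ITGAE in log2 fold, among 7793 with a mean within 4-fold of its own, were CHMP5, a subunit of the membrane-remodelling complex ESCRT-III, ITGB3BP, a centromere protein also called CENPR, and EVI2A. Their log2 folds were −1.95, −1.95 and −1.96, within 0.0054 of that of ITGAE, over 2 libraries. Their transcripts have 1477, 948 and 1860 nt, shorter than that of ITGAE. After the trend their log2 folds were −1.26, −0.89 and −1.15, against −2.20 for ITGAE.

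The known partners of ITGAE were scarce. ITGB7 had 75 reads (3.85 CPM) in the CHI3L1 siRNA library and 80 reads (5.06 CPM) in the control siRNA library, a ratio of 0.760 (0.547 to 1.06). Its exons share 1886 bases with ZNF740 on the opposite strand, which had 822 and 645 reads, and without the strand setting of the counting, reads of overlapping genes cannot be told apart. CDH1, the gene of the ligand E-cadherin, had 31 reads in the CHI3L1 siRNA library and 17 in the control siRNA library. Of the leukocyte markers, PTPRC, the pan-leukocyte gene, had 8 reads in the CHI3L1 siRNA library and 12 in the control siRNA library. CD4 had 105 reads (5.39 CPM) and 66 reads (4.17 CPM) in the same order of libraries, and the other 6 of the 8 leukocyte markers were not analysed here. The summed leukocyte level was 5.80 CPM in the CHI3L1 siRNA library and 4.93 CPM in the control siRNA library.

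**Figure D2:**
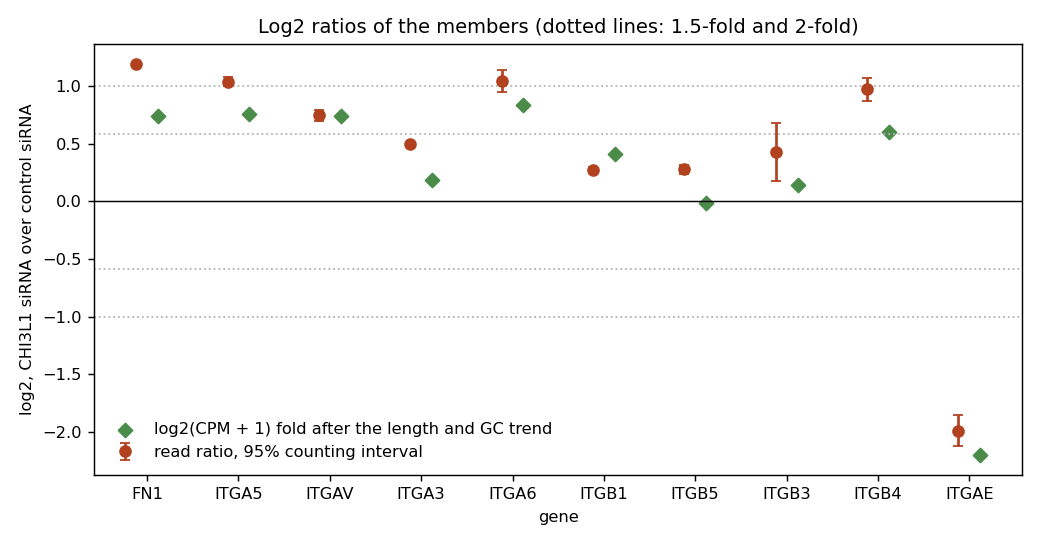
Log2 read ratio of CHI3L1 siRNA over control siRNA for the 10 genes, with 95% counting intervals (circles), and the log2 fold of CPM + 1 after the length and GC trend (diamonds). Dotted lines mark 1.5-fold and 2-fold, and ITGAE is the gene below 0 before the trend, with ITGB5 also just below 0 (−0.01) after it.

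**Figure D3:**
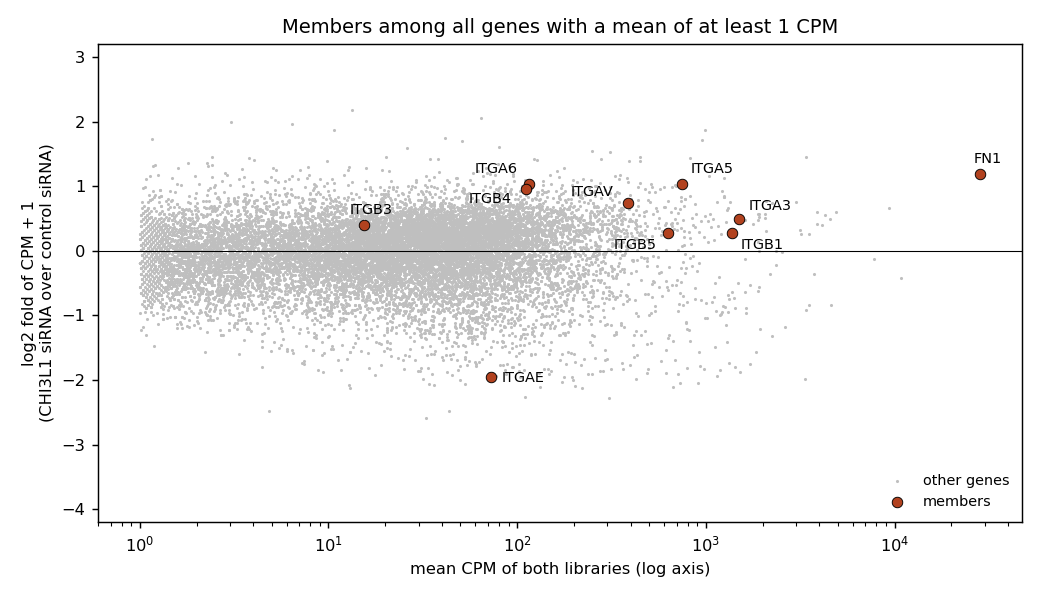
Log2 fold of CPM + 1 (CHI3L1 siRNA over control siRNA) against the mean CPM of both libraries (log axis) for every gene tested, with the 10 genes marked. FN1 lies farthest to the right, and ITGAE lies near the lower edge at a log2 fold of −1.95.

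**Figure D4:**
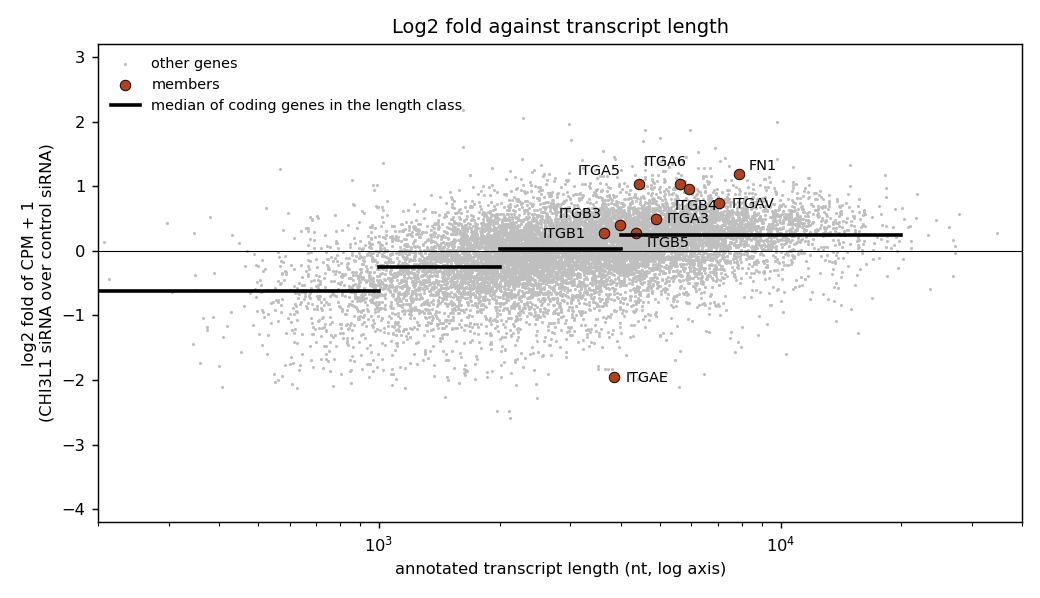
Log2 fold of CPM + 1 (CHI3L1 siRNA over control siRNA) against annotated transcript length (log axis), with the medians of coding genes in 4 length classes as black lines. The medians run from −0.62 at up to 1000 nt to 0.25 above 4000 nt, and ITGAE lies far below the median of its class.

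Levels of different genes were compared per kilobase of annotated transcript. In the CHI3L1 siRNA library the order was FN1 (5019 CPM per kb), ITGB1 (413), ITGA3 (359), ITGA5 (226), ITGB5 (158), ITGAV (69.0), ITGA6 (27.5), ITGB4 (24.9), ITGAE (7.56) and ITGB3 (4.42). In the control siRNA library FN1 stood at 2204 CPM per kb, ITGB1 at 342, ITGA3 at 255, ITGB5 at 131, ITGA5 at 110, ITGAV at 41.2, ITGAE at 30.01, ITGA6 at 13.4, ITGB4 at 12.7 and ITGB3 at 3.29. Between the libraries, ITGA5 and ITGB5 traded places, and ITGAE stood below ITGA6 and ITGB4 in the CHI3L1 siRNA library but above both in the control siRNA library. ITGA6 (12.6 to 14.1) and ITGB4 (12.02 to 13.48) had overlapping counting intervals in the control siRNA library, and the other neighbours in each order did not overlap. Spread between cultures is not known from 1 library per group, so the order is that of these libraries.

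Pairing the chains showed that ITGA3, ITGA5, ITGA6 and ITGAV were each higher by a larger factor than their partner ITGB1 before the trend, which turned the direction for ITGA3. For ITGA5 with ITGB1, the alpha over beta read ratio was 1.70 times as high (1.64 to 1.75) in the CHI3L1 siRNA library as in the control siRNA library. Per kilobase, ITGA5 was 0.547 of ITGB1 in the CHI3L1 siRNA library and 0.323 of it in the control siRNA library. For ITGA6 with ITGB1 the change in the ratio was 1.70 times (1.588 to 1.83), for ITGAV with ITGB1 1.38 times (1.33 to 1.44) and for ITGA3 with ITGB1 1.16 times (1.13 to 1.19). After the trend, the log2 difference between alpha and beta was 0.43 for ITGA6, 0.35 for ITGA5 and 0.33 for ITGAV with ITGB1, and −0.22 for ITGA3 with ITGB1.

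The hemidesmosome pair differed from these. ITGA6 and ITGB4 changed by nearly the same factor, with an alpha over beta ratio 1.05 times as high (0.955 to 1.16) in the CHI3L1 siRNA library, an interval that includes 1. Per kilobase, ITGA6 was 1.10 of ITGB4 in the CHI3L1 siRNA library and 1.05 of it in the control siRNA library. With the trend removed, the log2 difference was 0.24.

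ITGAV was higher relative to each of its beta partners in the CHI3L1 siRNA library. The alpha over beta ratio was 1.25 times as high (1.04 to 1.49) with ITGB3, 1.38 times (1.32 to 1.45) with ITGB5 and 1.51 times (1.42 to 1.61) with ITGB8, a chain known for activating latent TGF-beta. With ITGB6, an epithelial chain of the same kind that had 19 reads in the CHI3L1 siRNA library and 34 in the control siRNA library, the ratio was 3.69 times as high (2.05 to 6.86). After the trend the log2 differences were 0.60 with ITGB3, 0.75 with ITGB5, 0.59 with ITGB8 and 1.41 with ITGB6. For ITGAE with ITGB7 the ratio was 0.332 times (0.235 to 0.467) that of the control siRNA library, and the log2 difference after the trend was −1.77.

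**Figure D5:**
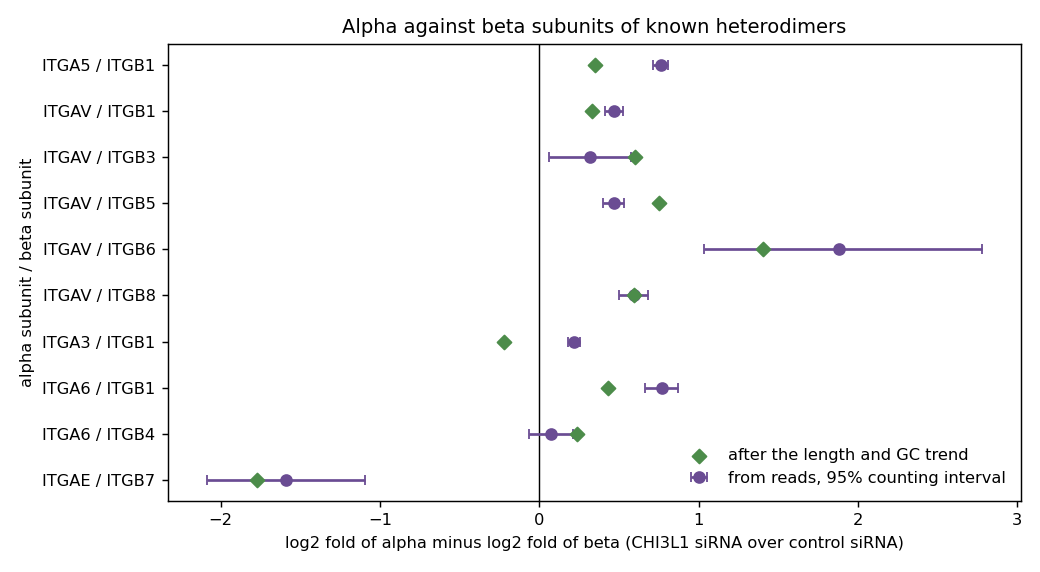
Log2 fold of the alpha chain minus log2 fold of the beta chain (CHI3L1 siRNA over control siRNA) for 10 known heterodimers, from reads with 95% counting intervals (circles) and after the length and GC trend (diamonds). ITGA6 with ITGB4 is the pair whose counting interval includes 0, ITGA3 with ITGB1 changes sign after the trend, and ITGAE with ITGB7 lies at the lower end.

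Summed over partners, the chains of ITGB1 receptors stood at 705 CPM per kb for 11 alpha chains in the CHI3L1 siRNA library, which was 1.71 times the level of ITGB1. In the control siRNA library the sum was 436 CPM per kb, 1.28 times the level of ITGB1. These sums are from values before the trend and were not made with it removed. After the trend, log2 folds were 0.41 for ITGB1, against 0.19 for ITGA3, 0.75 for ITGA5, 0.74 for ITGAV and 0.84 for ITGA6. ITGA3 made up 51.0% of that alpha sum in the CHI3L1 siRNA library and 58.6% in the control siRNA library, and ITGA5 made up 32.1% and 25.3% in the same order of libraries. For ITGAV, the 5 beta partners summed to 8.63 times its level in the CHI3L1 siRNA library and 11.98 times in the control siRNA library. ITGB1 was 69.4% of that beta sum in the CHI3L1 siRNA library and 69.3% in the control siRNA library. ITGB5 was 26.6% and 26.5% in the same order of libraries. Before the trend, the makeup of the beta side was thus nearly equal in both libraries. After the trend, the log2 folds of ITGB1 and ITGB5 differed, at 0.41 and −0.01. All 24 integrin subunits in the table together took 0.610% of reads in the CHI3L1 siRNA library and 0.436% in the control siRNA library, and ITGAE was 0.479% (0.440% to 0.520%) of those integrin reads in the CHI3L1 siRNA library and 2.65% (2.53% to 2.77%) in the control siRNA library.

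Of 17 other integrin subunits, 15 were in the table and 12 had a mean of at least 1 CPM. At 1.5-fold, 3 of the 12 were higher and 1 was lower in the CHI3L1 siRNA library, beside 7.73% and 13.4% of all genes tested. Their median log2 fold was 0.27. The collagen receptor chain ITGA2 stood at 25.9 CPM in the CHI3L1 siRNA library and 13.7 CPM in the control siRNA library, and ITGA9, a tenascin receptor chain, at 23.7 CPM and 13.7 CPM. ITGA1, another collagen receptor chain, had 156 reads in the CHI3L1 siRNA library and 57 in the control siRNA library, but it shares 475 exon bases on the same strand with PELO, which had more reads, so its value is uncertain. The subunit that was lower was ITGB6, with a log2 fold of −0.67. ITGB6 shares 966 exon bases on its own strand with an unnamed transcript that had 11 reads in each library, so its value is uncertain too. After the trend 2 of the 12 were higher and 1 lower, beside 7.34% and 6.25% of coding genes, with a median of 0.14.

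Other ligands with an RGD sequence were counted by the same limits. At 1.5-fold, 4 of 15 measured were higher and 2 lower in the CHI3L1 siRNA library, beside 7.73% and 13.4% of all genes tested. Their median log2 fold was 0.26. The microfibril genes FBN1 and FBN2 had log2 folds of 1.01 and 1.02, with FBN1 at 915 CPM in the CHI3L1 siRNA library and 454 CPM in the control siRNA library. L1CAM, a neural adhesion molecule, had a log2 fold of 1.07, and SPP1, the osteopontin gene, −0.80. VTN, the gene of vitronectin, had 12 reads in the CHI3L1 siRNA library and 8 in the control siRNA library. With the trend removed, 1 of the 15 was higher by that limit, L1CAM (0.74), and 1 was lower, CCN2 (−0.69, against −0.72 before). Of coding genes with a trend value, 7.34% were then higher and 6.25% lower. SPP1 then had −0.33. CCN2, the gene of a matricellular protein, was named after its values were seen.

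The laminin chains, ligands of ITGA3 and ITGA6, were higher in 6 of 10 measured cases at 1.5-fold, with 0 lower. Over all genes tested, 7.73% were higher and 13.4% lower by that limit. All 10 chains have transcripts above 4000 nt, a class in which 14.4% of coding genes were higher and 3.98% lower. The median log2 fold of the 10 chains was 0.59. LAMC1 stood at 754 CPM in the CHI3L1 siRNA library and 390 CPM in the control siRNA library. LAMB1 stood at 936 CPM in the CHI3L1 siRNA library and 546 CPM in the control siRNA library, and LAMA3 had a log2 fold of 0.70. With the trend removed, 1 of the 10 was higher by that limit, beside 7.34% of coding genes, and the median was 0.23. LAMC1 (0.51), LAMB1 (0.40) and LAMA3 (0.22) were then under the limit.

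Of 8 measured fibronectin binders that are not integrins, 2 were at least 1.5-fold higher and 0 lower, beside 7.73% and 13.4% of all genes tested. The median log2 fold of the 8 was 0.41. The 2 higher genes were the cell-surface proteoglycan GPC1, with a log2 fold of 0.65, and the urokinase receptor PLAUR, with 0.59. The median was also 0.41 after the trend. Then 2 were higher and 1 lower, but not the same genes, beside 7.34% and 6.25% of coding genes. PLAUR (0.79) and the proteoglycan SDC3 (0.60) were then higher, GPC1 (0.47) was not, and the transglutaminase TGM2 was lower (−0.79, against −0.46 before). With the trend on merged exon length SDC3 had 0.37, under the limit. SDC3 and TGM2 were named after their values were seen.

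On the cytoplasmic side, 6 of 26 measured integrin activators and focal adhesion genes were at least 1.5-fold higher and 0 lower. Over all genes tested, 7.73% were higher and 13.4% lower. These shares differed with length: 14.4% and 3.98% of coding genes with transcripts above 4000 nt, and 6.46% and 10.1% above 2000 and up to 4000 nt. The median log2 fold of the 26 genes was 0.33. TNS3, a tensin that binds beta chain tails, stood at 184 CPM in the CHI3L1 siRNA library and 91.0 CPM in the control siRNA library. Another tensin, TNS1, had a log2 fold of 0.78, the actin cross-linker FLNA 0.76 and the talin TLN2 0.73. After the trend 1 of 26 was higher, beside 7.34% of coding genes, and the median was 0.12. That gene was LIMS2, named after its values were seen, with a log2 fold of 0.67 before the trend and 0.80 after it, while TNS3 had 0.57, FLNA 0.33, TNS1 0.31 and TLN2 0.23 after it. With the trend on merged exon length TNS3 had 0.63, past the limit. Of 12 integrin inactivators and trafficking genes, 0 were higher and 1 was lower, beside 7.73% and 13.4% of all genes tested. The lower gene was the recycling GTPase RAB4A, with a log2 fold of −0.61. After the trend none of the 12 passed 1.5-fold in either direction. Of 8 hemidesmosome and tetraspanin genes, 1 was higher and 0 were lower, beside the same 7.73% and 13.4%. The higher gene was the tetraspanin CD81, with 134 CPM in the CHI3L1 siRNA library and 80.2 CPM in the control siRNA library. After the trend 2 of those 8 were higher, beside 7.34% of coding genes.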

How the data were processed

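RNA was measured by RNA sequencing in 2 FTC-133 libraries, 1 per group, grouped by their labels. The authors deposited 1 table of CPM values for 19362 Ensembl genes. Per the submitters' processing notes, the tools were HISAT2, featureCounts, Trimmomatic, FastQC and MultiQC, on GRCh38. Not given in the sources used here are the annotation release, scaling tool, low-count filter, strand setting, siRNA sequences and time after transfection. Deposited values were multiples of a step that is constant within a library, with 0.001 read added to each whole read number (1 read is 0.0513 CPM in the CHI3L1 siRNA library and 0.0632 CPM in the control siRNA library). Within 0.01 read, 100% of values gave whole reads. Every gene had at least 6 reads in 1 library. Symbols, coordinates and 1 principal transcript per coding gene came from a symbol table and GENCODE 29.

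Log2 folds are CHI3L1 siRNA over control siRNA of CPM plus a pseudocount of 1, for 14815 genes averaging at least 1 CPM, called by size only. Read ratios have exact (Clopper-Pearson) 95% intervals, levels per kilobase exact Poisson intervals and alpha over beta ratios conditional exact intervals. A cubic spline trend (3 interior knots per term) in GC content, coding length and transcript length was fitted to 12540 coding genes outside the gene lists and took up 36.0% of their variance. It was run on simulated counts with no trend or a trend in length alone, and with the changed genes left out of the fit. The GC and coding length terms were thus not tested. No count model was run. The genes, lists and settings were chosen with earlier results of these data known. Named genes were the 10 genes, their partners, CHI3L1, up to 4 genes per list with the largest folds of at least 1.5, the 3 nearest folds to FN1 and ITGAE, and genes sharing exons with the 10. Some genes that the rule took are not reported here. VTN, ZNF740, PELO and the cell type markers are named for context. Python 3.11.15, numpy 2.4.6, pandas 2.3.3, scipy 1.17.1 and matplotlib 3.10.9 were used.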

Additional observations from a re-analysis of the deposited data

How the results depend on the processing

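The count of 5 of the 10 genes at least 1.5-fold higher held under all 13 alternatives run. Filters on the mean, on protein-coding genes and on transcripts of at least 2000 nt leave the folds as they are. All 5 genes pass those filters, so the count could not change there. ITGAE, at a mean of 72.5 CPM, left the table at a mean of at least 100 CPM, which gave 0 lower genes at 1.5-fold and 0 at 2-fold. The 3 genes at least 2-fold higher became 2 with a pseudocount of 10 CPM and 1 with centring. They became 1 where the counting interval had to lie wholly beyond 2-fold. The count was 0 with the length and GC trend, and 0 with the trend on merged exon length, a setting added after seeing the data. FN1 ranged from 0.73 to 1.22 in log2 fold, ITGA5 from 0.75 to 1.07, ITGA6 from 0.84 to 1.07 and ITGAE from −2.26 to −1.68. Over all genes, a pseudocount of 10 CPM gave 492 higher and 1011 lower at 1.5-fold, and 53 and 327 at 2-fold. Centring gave 686 higher at 1.5-fold and 93 at 2-fold, and moved the median of all genes to −0.09. A mean of at least 10 CPM gave 101 higher at 2-fold. A mean of at least 100 CPM gave 287 higher and 368 lower at 1.5-fold, and 43 and 180 at 2-fold. The trend gave 791 lower at 1.5-fold and 174 at 2-fold, its merged exon form 885 and 201, and transcripts of at least 2000 nt 684 and 198. By construction these settings change fold sizes, limits or which genes enter. No paired analysis was possible because each group has 1 library. With 1 library per group no result has a replicate check, and counting intervals are wide for genes with few reads, such as ITGB6, ITGB7 and CDH1.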
